A study of Mus musculus with 11 samples.

Results

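Interferon-stimulated genes are genes whose transcription is switched on when a cell senses an interferon. Such genes, 39 in number, were listed by symbol, and 38 of them were found among the 29809 genes of a single-cell RNA sequencing count matrix of mouse colonic mucosa. Mx1 was not analysed here. The 38 members were read in 3 groups. Of these, 14 were called type I-like (Ifit1, Ifit2, Ifit3, Ifit3b, Isg15, Oasl2, Oas1a, Oas3, Rsad2, Usp18, Irf7, Ifi44, Rtp4 and Xaf1). Another 13 were called gamma-like (Gbp2 to Gbp7, Irgm1, Igtp, Iigp1, Tgtp2, Ubd, Irf1 and Socs1). The other 11 were placed in neither group (Isg20, Irf9, Stat2, Bst2, Ifitm1, Ifitm3, Ifi35, Ifih1, Ddx58, Parp14 and Trim30a). The group names are labels for the lists, since many members respond to both kinds of interferon.

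The samples were 11 libraries of dissociated colonic mucosa, 1 per group, each made from a pool of 3 to 8 mice. The uninjured library came from wild-type mice of about 2 months that were not injured. The 9 DSS libraries came from wild-type mice of the same age given 3% dextran sulfate sodium (DSS, a detergent that injures the colon lining) for 6 days, dissected on days 6 and 7, 9, 11 and 12, 16, 18 and 19, or 23 counted from the start of DSS. The last came from Il10-/- mice of about 10 months, which lack the anti-inflammatory cytokine interleukin 10 throughout the body and had raised fecal lipocalin, a sign of colitis. The Il10-/- library therefore differs from the uninjured one in age as well as genotype, and the effects of the 2 cannot be told apart. The wall was stripped of its myenteric layers, and dead cells were removed with annexin V before loading. The libraries of days 7, 11 and 18 were loaded fresh (batch C of the cell table) and the other 8 were frozen and thawed (batch A).

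The 11 libraries held 55603 cells, from 1820 in the uninjured library to 8953 on day 11, with totals from 7922350 (day 6) to 87012379 (day 11) unique molecular counts. The fresh libraries were the deepest. Cells were taken by the authors' 28 annotated types, which were joined into 16 classes such as columnar epithelial cells, and counts were summed per library and class. In the columnar epithelial, fibroblast, blood endothelial, monocyte or macrophage, neutrophil, T cell and B cell classes used below, the summed markers of each class were far above their level in the other classes named here. The exception was the monocyte or macrophage list, which neutrophils also carried at 5455 to 7358 CPM (counts scaled to a common class total) after DSS, against 6977 to 11864 CPM in the monocyte or macrophage class. A set of 7 neutrophil markers (S100a8, S100a9, Csf3r, Retnlg, Mmp9, Cxcr2 and Ly6g) were also read in every other class. In the columnar class they summed to 388 CPM in the uninjured library, 668 to 12413 CPM after DSS and 3892 CPM in Il10-/-. One of them, Ly6g, also names an epithelial type of the authors and alone gave 384 CPM in the uninjured columnar cells, and the other 6 markers summed to 4.16 CPM there, 314 to 12030 CPM after DSS and 3072 CPM in Il10-/-. Il10 was higher in the library labelled Il10-/- than in every DSS library in several classes, at 217 CPM in neutrophils against at most 30.9 CPM after DSS and at 71.5 CPM in fibroblasts against at most 3.2 CPM. The 3′ tags need not cover the altered part of the gene, so this does not check the genotype. In all, 611 of 54976 cell barcodes occurred in more than 1 library.

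Type I interferons act through the receptor IFNAR1/IFNAR2 and lead to binding at an interferon-stimulated response element (ISRE). Interferon gamma acts through IFNGR1/IFNGR2 and leads to binding at a gamma-activated site (GAS) and to induction of the factor IRF1. In the gut, interferon gamma comes mainly from T cells and innate lymphocytes. Its targets include the guanylate-binding proteins (Gbp) and immunity-related GTPases (Irgm1, Igtp, Iigp1, Tgtp2), families with members that attack vacuoles that hold microbes. The type I-like members include RNA-binding Ifit proteins, the RNA sensors and synthetases of the Oas family and the ubiquitin-like modifier Isg15.

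The promoters of 5 members are shown because they carry the motifs these pathways are known to use and belong to members that the values below turn on. The windows run from 250 bases before to 50 bases after the annotated gene start, from RefSeq on GRCm38.p6 (mm10), 5′ to 3′ on the gene's strand. Capitals mark every match to the ISRE letters GAAANNGAAA or TTTCNNTTTC (the other strand) and to the GAS letters TTCNNNGAA, which read the same on both strands.
Ifit1: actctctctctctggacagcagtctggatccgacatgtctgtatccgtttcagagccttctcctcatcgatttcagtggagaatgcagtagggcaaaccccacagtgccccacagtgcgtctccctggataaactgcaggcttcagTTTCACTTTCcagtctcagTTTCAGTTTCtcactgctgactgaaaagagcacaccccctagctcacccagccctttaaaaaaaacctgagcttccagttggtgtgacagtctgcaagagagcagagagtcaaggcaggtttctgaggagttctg
Isg15: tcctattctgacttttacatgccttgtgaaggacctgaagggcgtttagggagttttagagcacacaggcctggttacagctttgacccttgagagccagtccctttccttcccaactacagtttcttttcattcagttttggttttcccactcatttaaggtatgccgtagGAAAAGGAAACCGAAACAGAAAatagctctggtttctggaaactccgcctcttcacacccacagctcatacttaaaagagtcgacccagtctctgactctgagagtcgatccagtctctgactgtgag
Gbp2: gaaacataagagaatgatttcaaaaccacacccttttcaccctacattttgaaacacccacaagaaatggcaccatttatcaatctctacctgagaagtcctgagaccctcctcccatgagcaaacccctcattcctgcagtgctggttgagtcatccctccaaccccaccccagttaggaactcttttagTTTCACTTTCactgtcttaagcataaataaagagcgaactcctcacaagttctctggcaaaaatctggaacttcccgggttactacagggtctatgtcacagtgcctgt
Igtp: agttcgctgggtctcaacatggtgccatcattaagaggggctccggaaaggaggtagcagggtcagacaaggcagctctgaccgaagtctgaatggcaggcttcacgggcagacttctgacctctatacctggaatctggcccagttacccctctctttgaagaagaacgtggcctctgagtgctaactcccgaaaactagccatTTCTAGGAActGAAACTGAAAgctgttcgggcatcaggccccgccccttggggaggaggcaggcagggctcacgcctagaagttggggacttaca
Irf1: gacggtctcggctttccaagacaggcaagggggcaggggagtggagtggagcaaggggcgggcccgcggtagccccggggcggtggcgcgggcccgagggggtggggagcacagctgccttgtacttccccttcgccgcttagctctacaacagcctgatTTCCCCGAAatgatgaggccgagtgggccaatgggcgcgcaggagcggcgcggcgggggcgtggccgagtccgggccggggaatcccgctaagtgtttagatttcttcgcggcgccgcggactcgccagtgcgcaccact
Ifit1 lies at chr19:34640871-34650009 on the plus strand and its window at chr19:34640639-34640938. Isg15 lies at chr4:156199424-156200818 on the minus strand, with its window at chr4:156200769-156201068. The Gbp2 window lies at chr3:142620413-142620712, the Igtp window at chr11:58199306-58199605 and the Irf1 window at chr11:53769764-53770063, all on the plus strand. Ifit1 held 2 ISRE matches and Isg15 held 3 that overlap each other. Gbp2 held 1 ISRE match, Igtp held 1 ISRE and 1 GAS match side by side, and Irf1 held 1 GAS match with no ISRE.

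Promoter windows were matched for 32 of the 38 members. Rtp4, Usp18, Gbp4, Gbp6, Iigp1 and Parp14 had none. The ISRE letters occurred in 7 of 12 type I-like members, 8 of 10 gamma-like members and 6 of 10 in neither group. Of all 27025 genes with a window of this length, 3.99% held them. The GAS letters occurred in 2 of 12 type I-like, 5 of 10 gamma-like and 4 of 10 other members, against 9.55% of all genes. Both motifs stood in 1, 4 and 2 members respectively, against 0.614% of all genes. An ISRE and a GAS match overlapped in Bst2 and Ifitm3. The ISRE letters were therefore present in both lists, and a match describes letters only.

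Interferon transcripts themselves were few apart from Ifng. Ifng, which encodes interferon gamma, had 7078 counts over the 11 libraries, 94.2% of them in T cells. Its level in T cells was 728.9 CPM in the uninjured library, 120.5 to 2121.5 CPM after DSS and 295 CPM in Il10-/-. The uninjured value rests on 41 counts from 38 cells and the highest DSS value, day 6, on 182 counts from 58 cells. The Il10-/- value rests on 873 counts from 1318 cells. Ifnb1 had 9 counts, all in the monocyte or macrophage class, Ifnk had 5 and Ifnl2 had 1. Ifna1, Ifna2, Ifna4, Ifna5, Ifne and Ifnl3 had 0 counts.

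Across the authors' types, the gamma-like members were highest in vessels and the type I-like members in neutrophils and surface epithelium. In all, 18 types had at least 20 cells in at least 5 libraries, and the levels below are medians over those libraries with the lowest and highest library. Types were defined by the authors from the expression of these same cells, so their order is a description. The gamma-like members summed to 2485 CPM in Endothelium (1579 to 5616, 10 libraries), 1646 CPM in Lymphatic (673 to 3032, 8 libraries), 1171 CPM in Neutrophil (666 to 2510, 10 libraries), 1111 CPM in Car4/Ly6g epithelium (120.0 to 3135, 11 libraries) and 1086 CPM in Macrophage (264 to 1826, 11 libraries). At the other end they summed to 189 CPM in B cells (80.9 to 597) and 102 CPM in plasma cells (75.6 to 198). The ranges of the 5 highest types overlap one another, while the plasma cell range lies below that of Endothelium.

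The type I-like members summed to 1737 CPM in Neutrophil (773 to 2733), 1191 CPM in Car4/Ly6g epithelium (259 to 1843), 849 CPM in Endothelium (505 to 1685) and 740.3 CPM in Macrophage (123 to 1241). B cells (94.4 CPM) and plasma cells (44.4 CPM) were again lowest. Neutrophils had the highest median of any type for Isg15, Oas3, Oasl2, Rsad2 and Rtp4, and Car4/Ly6g epithelium for Ifit1, Ifit2, Ifit3b, Irf7 and Oas1a. Isg15 reached a median of 869 CPM in neutrophils (262 to 1482). Ifi44, Usp18 and Xaf1 were highest in Lymphatic and Ifit3 in Endothelium.

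The gamma-like members had other leading types. Endothelium was highest for the GTPases Igtp, Iigp1, Irgm1 and Tgtp2 and for Gbp4. Macrophages led for Gbp2 (412 CPM) and Gbp3, neutrophils for Gbp5 and Irf1, T cells for Socs1 (an inhibitor of JAK kinases), Lymphatic for Gbp7 and the fibroblasts with no subtype name for Gbp6. Ubd, a ubiquitin-like modifier also known as FAT10, was highest in Car4/Ly6g epithelium at 147 CPM, with libraries from 0 to 1744 CPM. Among members in neither group, dendritic cells led for Bst2 (tetherin, which holds budding virus at the cell surface) at 3287 CPM (3058 to 4078, 5 libraries) and for Stat2. These cells, named dendritic by the authors, carried 4 plasmacytoid markers (Siglech, Ccr9, Cox6a2 and Klk1) at a summed 3881 to 5371 CPM after DSS and 5048 CPM in Il10-/-. The 5 markers of other dendritic cells (Flt3, Xcr1, Clec9a, Cd209a and Zbtb46) summed to 359 to 427 and 297 CPM, with Xcr1 and Zbtb46 at 0 in all 5 libraries. Bst2 is itself known as a gene of plasmacytoid dendritic cells in the mouse. Neutrophils led for Ifitm1 (7295 CPM), Isg20 and Trim30a, and Lymphatic for Ifitm3 (5181 CPM) and Irf9. Ifitm proteins restrict the entry of viruses into cells. The 2 RNA sensors had separate leading types, Ddx58 in Endothelium and Ifih1 in Car4/Ly6g epithelium.

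**Figure D1:**
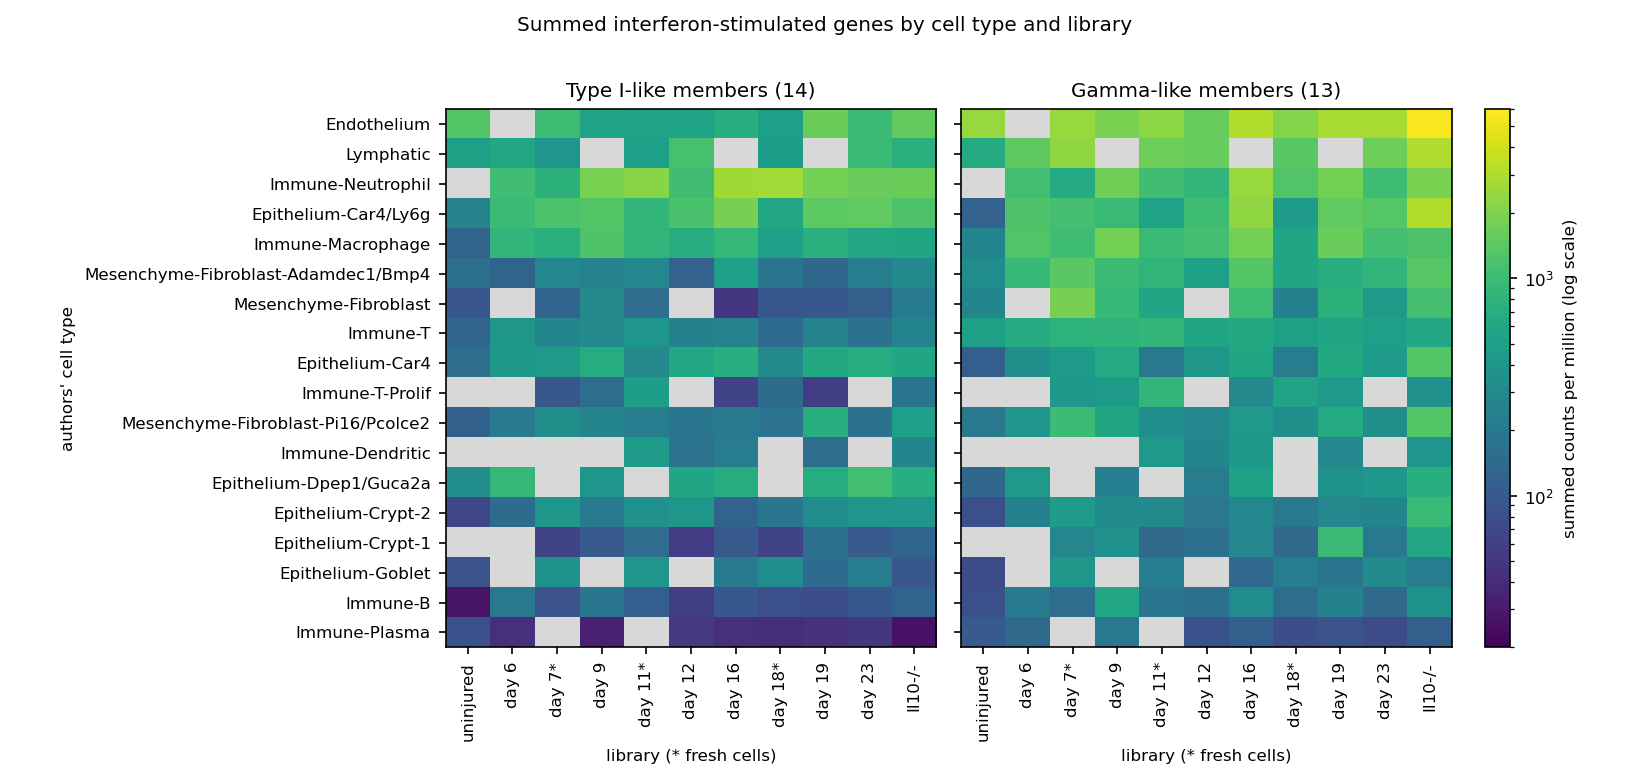
Summed CPM (log colour scale) of the 14 type I-like and 13 gamma-like members in each authors' type (vertical axis) and library (horizontal axis, asterisks mark fresh cells); grey marks fewer than 20 cells. Of the types drawn, which have at least 5 libraries, Endothelium has the highest median gamma-like sum and reaches 5616 CPM in Il10-/-, and the uninjured column is among the lowest in most epithelial and immune types.

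Within the epithelium, Car4/Ly6g cells (an annotation the authors took from 2 genes) carried more of both lists than Crypt-2 cells in 11 of 11 libraries. The median ratio of Car4/Ly6g to Crypt-2 was 3.81 for the type I-like sum and 3.32 for the gamma-like sum. Single members with the same order in 11 of 11 libraries included Ifit1 (median ratio 6.87), Gbp2 (5.96), Irf7 (4.95) and Isg15 (3.71). Bst2 went the other way, with a median ratio of 0.49 and Car4/Ly6g above Crypt-2 in 2 of 11 libraries, as did Ifitm3 (0.86, 3 of 11). Of the gamma-like members, Tgtp2 also did (0.29, 2 of 11), and Gbp6 was higher in Car4/Ly6g in 5 of 11 libraries. Both had a median of 0 CPM in Car4/Ly6g cells. Car4/Ly6g cells made up 19.1% of columnar cells in the uninjured library (95% exact binomial interval 16.2 to 22.2), 15.4% to 49.3% after DSS and 30.7% in Il10-/-. A columnar total therefore also moves with the share of this type.

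Type by type, the uninjured library lay below all measured DSS libraries in 9 of 14 types for the type I-like sum and in 10 of 14 for the gamma-like sum. The Il10-/- library lay above all DSS libraries in 0 of 18 types for the type I-like sum and in 7 of 18 for the gamma-like sum. Those 7 were Endothelium, Lymphatic, Car4, Car4/Ly6g, Crypt-2 and Dpep1/Guca2a epithelium and the Pi16/Pcolce2 fibroblasts. Ubd alone reached 1744 CPM in the highest library of Car4/Ly6g cells and 817 CPM in that of Car4 cells. The sums of single types without Ubd are not given here. The count of 0 types depends in part on single cells. Without each library's highest cell, the lymphatic type I-like sum was 720 CPM in Il10-/- against at most 522 CPM after DSS. With all cells, day 12 reached 1132 CPM there. In the joined fibroblast and blood endothelial classes, Il10-/- lay above all DSS libraries for this sum with all cells. The values were 453 against at most 403 CPM and 1572 against at most 1346 CPM. The difference between the 2 lists was not tested. In plasma cells the type I-like sum was 84.7 CPM uninjured, 33.9 to 52.0 CPM after DSS and 26.5 CPM in Il10-/-, but 1 of the 37 uninjured cells held 28 of the 34 counts. Without each library's highest cell the order turned, with 15.6 CPM uninjured, 22.7 to 41.6 CPM after DSS and 23.4 CPM in Il10-/-.

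The columnar epithelial class shows the pattern most fully. Its type I-like sum was 168 CPM in the uninjured library, 281 to 817 CPM after DSS (median 595) and 675 CPM in Il10-/-. Its gamma-like sum was 102 CPM uninjured, 251 to 832 CPM after DSS (median 461) and 1593 CPM in Il10-/-. Both sums were lowest in the uninjured library, and the Il10-/- library stood above every DSS library for the gamma-like sum alone. Without Ubd the gamma-like sums were 97.6, 220.5 to 732 and 815 CPM, so the Il10-/- library still lay above the DSS range but by less. On day 16 a single cell held 26.0% of the type I-like and 23.7% of the gamma-like counts. Without each library's highest cell the gamma-like sum was 99.4 CPM uninjured, 236 to 793 CPM after DSS and 1528 CPM in Il10-/-.

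Gbp2, a guanylate-binding protein, was at 6.7 CPM in uninjured columnar cells. It was at 172, 248.5, 77.2, 62.3, 132, 176, 47.8, 137 and 91.6 CPM on days 6, 7 and 9, then 11, 12 and 16, then 18, 19 and 23, and at 244 CPM in Il10-/-. All 9 DSS libraries lay above the uninjured one, and day 7 was higher than Il10-/-. Isg15 was at 17.6 CPM uninjured, at 84.7, 196, 90.2, 86.6, 144, 175, 52.2, 161 and 132 CPM on the same days and at 166 CPM in Il10-/-. The uninjured library again lay below all others, and the lowest DSS library was day 18 for both genes. Ubd was at 4.2 CPM uninjured, at 60.7, 73.8, 27.3, 34.6, 59.4, 266, 24.6, 222 and 113 CPM on those days and at 778 CPM in Il10-/-. For Ubd the highest DSS libraries were days 16 and 19, and Il10-/- was above both.

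Igtp, an immunity-related GTPase, was at 0.7 CPM in uninjured columnar cells, 11.6 to 45.0 CPM after DSS and 99.6 CPM in Il10-/-. Irf7, the factor that amplifies type I interferon production, behaved otherwise: it was at 99.9 CPM uninjured and 78.2 to 224 CPM after DSS (177 CPM in Il10-/-), so the uninjured library lay inside the DSS range. Irf1 was at 71.3 CPM uninjured, 82.8 to 231.5 CPM after DSS and 217 CPM in Il10-/-. Ifitm1 was at 5.6 CPM uninjured, 28.3 to 498 CPM after DSS and 42.8 CPM in Il10-/-. Neutrophil markers moved with Ifitm1: the Ifitm1 level that the neutrophil markers other than Ly6g in columnar cells would bring, at the ratio found in neutrophils of the same library, was 54.9% to 185% of the measured level (median 79.1%, 10 libraries). For the sums this share had a median of 2.57% (type I-like, up to 33.1%) and 1.91% (gamma-like, up to 21.1%). Taken in the same way from monocyte or macrophage markers, it had a median of 2.51% (type I-like, up to 9.86%) and 4.04% (gamma-like, up to 14.95%). The part of RNA from neutrophils and macrophages in the results was not tested beyond those values.

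**Figure D2:**
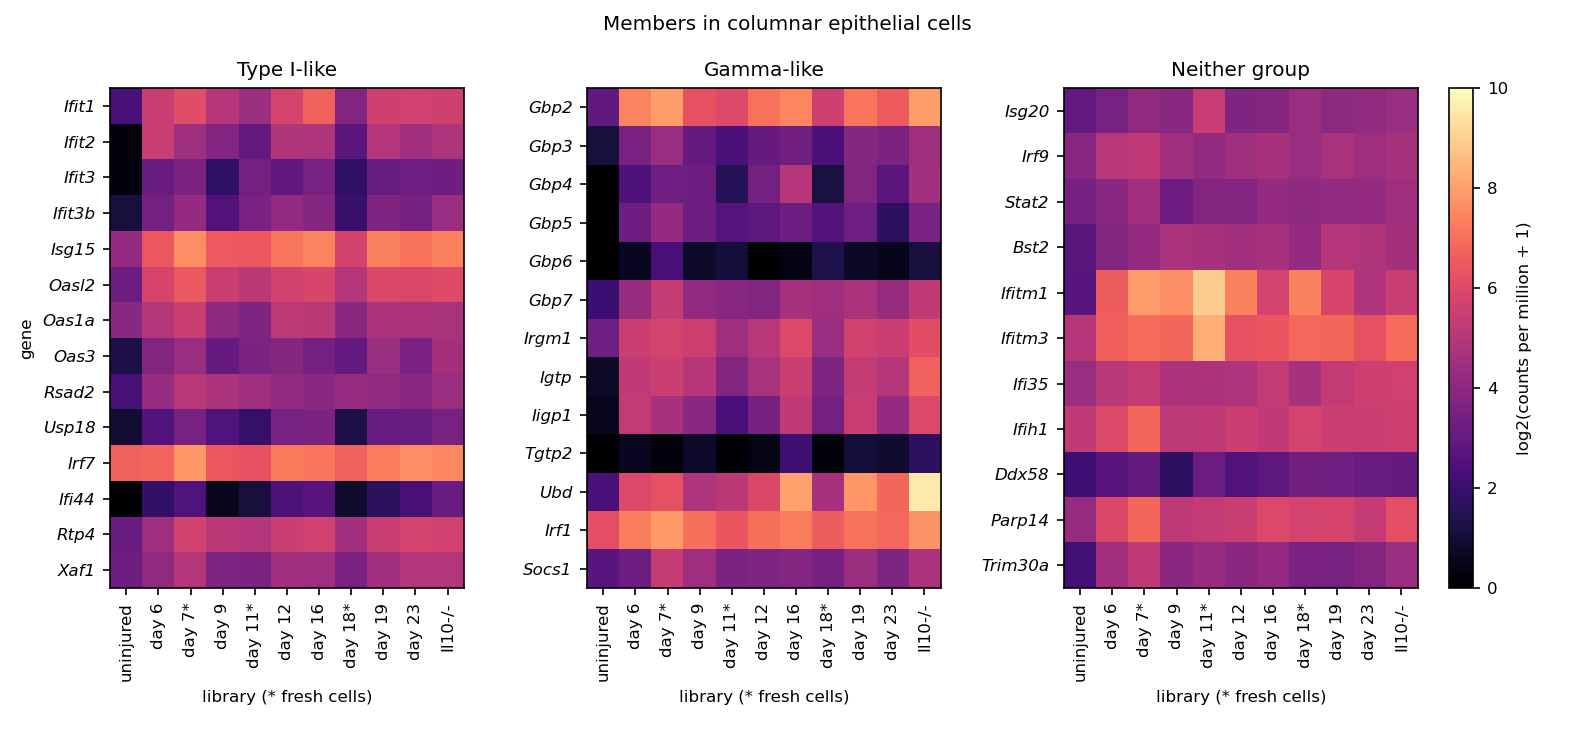
Level of each of the 38 members in columnar epithelial cells as log2(CPM + 1) (colour) by gene (vertical axis) and library (horizontal axis, asterisks mark fresh cells). The uninjured column is darkest for most genes, with Irf7 at 99.9 CPM and Irf1 at 71.3 CPM as its highest values, and Ubd in Il10-/- at 778 CPM is the brightest cell.

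Ratios to the uninjured library were taken for genes that had 20 or more counts in either library. A member with few uninjured counts entered only through the other library, where it was higher, as Ifit2, Iigp1 and Igtp did on day 6. The counts and medians of ratios below are therefore descriptions of the members that entered. The same minimum held for all genes compared. The ratios rest on 1 library each, so their 95% intervals cover counting error only and no test of the condition was possible. On day 6, 22 of 29 members were at least 2-fold higher in columnar cells and 0 at least 2-fold lower, where 7.39% of all genes compared were at least 2-fold higher. The median ratio was 4.55 for 10 type I-like members, 9.27 for 9 gamma-like members and 1.07 for all genes. The 4 highest were Ifit2 at 185-fold (32.4 to 7406, 84 counts against 1), Iigp1 at 83.8-fold (22.4 to 705, 76 against 2), Igtp at 54.4-fold (17.9 to 269.9, 74 against 3) and Gbp2 at 25.6-fold (17.5 to 38.9). Irf7 at 1.10-fold (0.93 to 1.30) and Stat2 at 1.39-fold (0.82 to 2.29) were lowest, and both intervals include 1.

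In Il10-/- columnar cells 32 of 36 members were at least 2-fold higher and 0 lower, with 8.67% of all genes at least 2-fold higher. The medians were 10.2 for the type I-like and 17.6 for the gamma-like members, against 1.01 for all genes. Ubd was 187-fold higher (118 to 316, 4505 counts against 18), Igtp 144-fold (48.9 to 698), Iigp1 133-fold (36.5 to 1101) and Ifit2 118-fold (20.9 to 4688, 158 against 1). The smallest ratios were those of the RNA sensor Ifih1 at 1.23 (1.01 to 1.505) and of Irf9 at 1.73 (1.27 to 2.38). The ratios of the receptor genes on day 6 and in Il10-/- were 0.92 and 0.98 for Ifngr1 and 0.90 and 0.94 for Ifnar1. Of the other interferon targets listed, 10 of 14 on day 6 and 19 of 22 in Il10-/- were at least 2-fold higher.

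**Figure D3:**
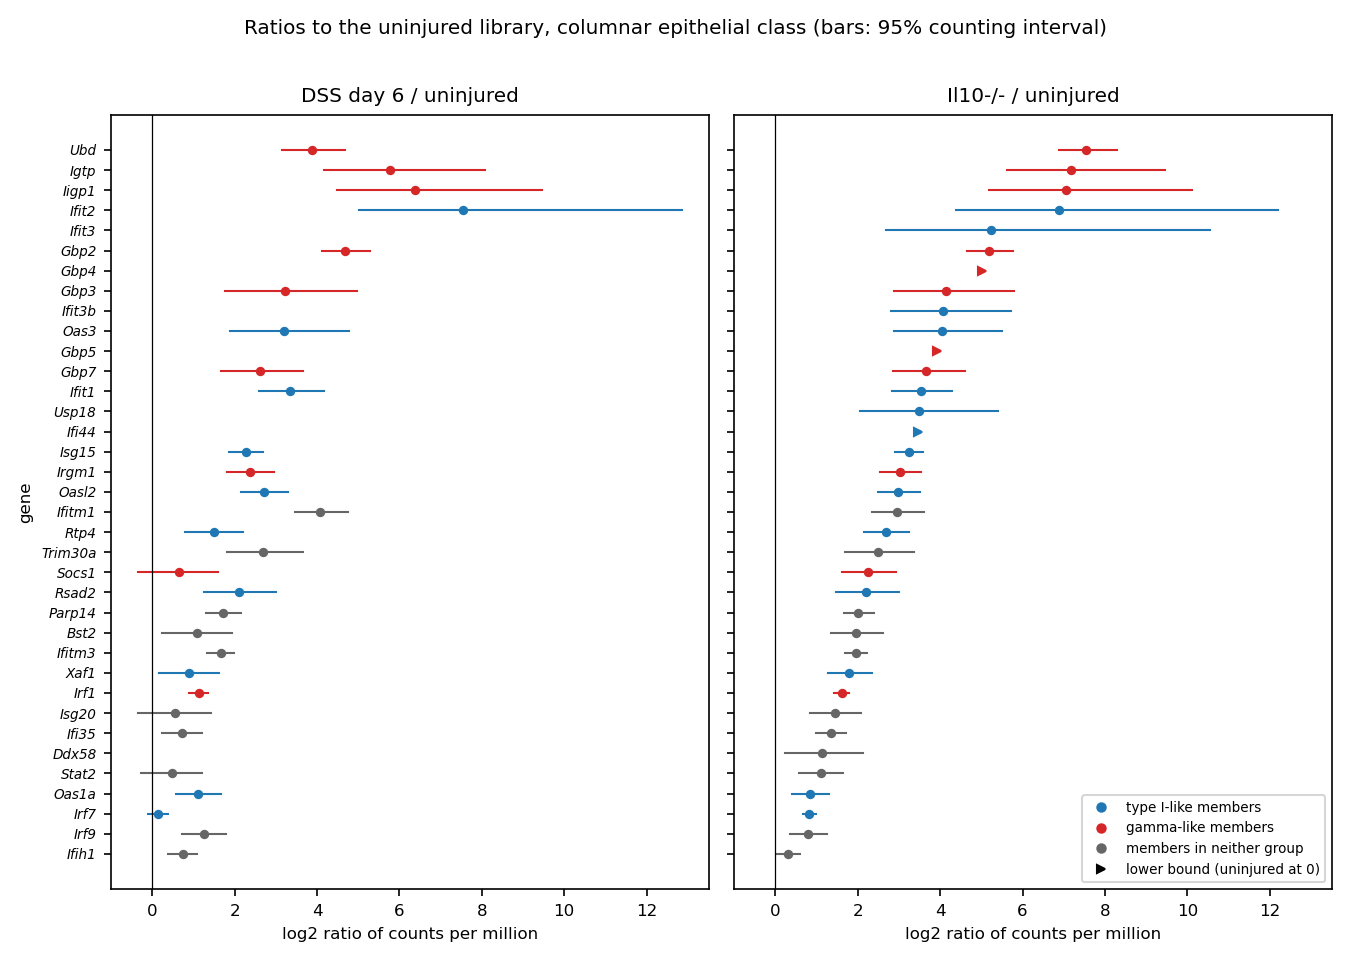
Log2 ratio of CPM to the uninjured library in columnar epithelial cells for DSS day 6 (left) and Il10-/- (right), by member, coloured by list, with 95% counting intervals; triangles are lower bounds where the uninjured library had 0 counts. Gamma-like members reach the highest Il10-/- values (Ubd 187-fold), and Irf7 on day 6 lies at 1.10-fold.

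Counted by rank, 31 of 37 members with at least 100 counts had the uninjured library below all 9 DSS libraries in columnar cells, where 24.2% of all genes did. They comprised 12 of 14 type I-like, 11 of 12 gamma-like and 8 of 11 other members. The Il10-/- library lay above all 9 DSS libraries for 9 of 37 members, against 3.45% of genes: Gbp3, Igtp, Iigp1, Irgm1 and Ubd of the gamma-like list, Ifi44, Ifit3b and Oas3 of the type I-like list, and Ifi35. Against the 6 frozen DSS libraries alone, which share the batch of Il10-/-, 20 of 37 members lay above, with 8.78% of genes.

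Fibroblasts showed a smaller difference on day 6 than in Il10-/-. Their type I-like sum was 127 CPM uninjured, 171 to 403 CPM after DSS (median 255) and 453 CPM in Il10-/-, and their gamma-like sum 221, 338 to 1224 (median 593) and 1308 CPM. Neutrophil markers in fibroblasts summed to 11.7 CPM uninjured, 207 to 4691 CPM after DSS and 810 CPM in Il10-/-. The share of the type I-like sum that they would bring, taken as for columnar cells, had a median of 4.22% and reached 16.8%. For the gamma-like sum the median was 1.56% and the highest share 3.66%. From monocyte or macrophage markers the medians were 4.45% (type I-like, up to 12.9%) and 4.48% (gamma-like, up to 10.1%). The Il10-/- library lay above every DSS library for both sums, and just above the highest one, day 7, for the gamma-like sum. Without each library's highest cell, the type I-like sum was 441 CPM in Il10-/- against at most 296 CPM after DSS. The gamma-like sum was then 1288 CPM against at most 1211 CPM. On day 19 a single cell held 29.1% of the type I-like counts and 72.1% of those of Rsad2 (viperin, an antiviral enzyme), which was at 52.6 CPM there and 1.0 to 25 CPM in the other DSS libraries. Iigp1 was at 13.1 CPM uninjured, 31.7 to 370.1 CPM after DSS (median 147) and 402 CPM in Il10-/-. Irf1 was at 84.3 CPM, 119 to 247 CPM (median 153) and 188 CPM, so Il10-/- fell inside its DSS range. Isg15 was at 17.0 CPM, 28.9 to 116 CPM (median 63.8) and 103 CPM. Oasl2 was at 12.3 CPM, 18.3 to 41.2 CPM (median 26.8) and 38.2 CPM.

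On day 6, 9 of 28 members were at least 2-fold higher in fibroblasts (7.1% of genes) and 1 at least 2-fold lower (10.4% of genes). Iigp1 was 11.0-fold higher (7.89 to 15.5), Gbp5 9.96-fold (3.68 to 33.7), Igtp 5.28-fold (3.11 to 9.27) and Ifit1 4.07-fold (2.45 to 6.93). Ifit2 was the lower one, at 0.18-fold (0.05 to 0.49), and Isg20 was at 0.57-fold (0.34 to 0.91). The same gene Ifit2 was 185-fold higher in columnar cells of that library. The medians were 1.22 for type I-like and 2.26 for gamma-like members. In Il10-/-, 31 of 37 members were at least 2-fold higher, with 4.97% of genes, and the medians were 5.73 and 7.27. Gbp4 was 73.3-fold higher (12.9 to 2925, 98 counts against 1), Tgtp2 65.8-fold (11.5 to 2629, 88 against 1), Iigp1 30.6-fold (22.7 to 42.3) and Igtp 23.2-fold (15 to 37.7). Ifit2 at 0.67 (0.44 to 1.03) and Ddx58 at 1.22 (0.79 to 1.91) were lowest.

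In total, 20 of 38 members in fibroblasts had the uninjured library below all DSS libraries, with 19.2% of genes, including 10 of 13 gamma-like and 7 of 14 type I-like members. Il10-/- lay above all DSS libraries for 19 of 38 members, with 10.1% of genes, among them 7 of 13 gamma-like members (Gbp3, Gbp4, Igtp, Iigp1, Irgm1, Socs1 and Tgtp2) and 6 of 14 type I-like members (Ifit1, Irf7, Oas1a, Rtp4, Usp18 and Xaf1).

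Blood endothelium had high levels already without injury. Its type I-like sum was 1276 CPM uninjured, 403 to 1346 CPM after DSS (median 544) and 1572 CPM in Il10-/-. Its gamma-like sum was 2592 CPM uninjured, 1267 to 2843 CPM after DSS (median 2640) and 7107 CPM in Il10-/-. The uninjured library lay inside the DSS range for both sums. These values rest on few cells, namely 43 uninjured, 27 on day 6 and 54 in Il10-/-, and on 33 to 491 on the other days. The authors' Selp/Sele endothelial type gave 4 of the uninjured and 9 of the day 6 cells, so the class also differed in make-up. A single Il10-/- cell held 29.5% of the gamma-like counts and 71.8% of the 386 Ubd counts, which came from 11 cells. Without Ubd the Il10-/- gamma-like sum was 4985 CPM, and without the highest cell and Ubd 3840 CPM against at most 2516 CPM after DSS. Neutrophil markers in this class summed to 10.0 CPM uninjured, 247 to 28116 CPM after DSS and 20523 CPM in Il10-/-. The share of the type I-like sum that they would bring, taken as for columnar cells, had a median of 3.87% and reached 20.6%. For the gamma-like sum the median was 0.73% and the highest share 2.68%. From monocyte or macrophage markers the medians were 4.22% (type I-like, up to 13.2%) and 1.87% (gamma-like, up to 6.48%). The part of either source in the result was not tested beyond those values.

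Isg15 was at 558 CPM in uninjured endothelium, 102 to 504 CPM after DSS (median 174) and 495 CPM in Il10-/-, so every DSS library was below the uninjured one. Rsad2 was at 69.8 CPM, 0 to 166 CPM (median 35.4) and 132 CPM. Iigp1 was at 857 CPM, 289.9 to 1249 CPM (median 799) and 1544 CPM, with the uninjured library inside the DSS range. Irf1 was at 658 CPM, 221.5 to 749.9 CPM (median 332) and 374 CPM. Gbp2 was at 259 CPM uninjured, 133 to 364 CPM after DSS and 1011 CPM in Il10-/-.

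On day 6, 0 of 7 endothelial members with enough counts were at least 2-fold higher (11.6% of genes) and 5 were at least 2-fold lower (15.8% of genes). The 5 were Ifit1 at 0.18-fold (0.03 to 0.61), Isg15 at 0.31-fold (0.16 to 0.57), Irf1 at 0.39-fold (0.22 to 0.65), Bst2 at 0.40-fold (0.21 to 0.70) and Iigp1 at 0.50-fold (0.32 to 0.75). Gbp2 was at 0.62-fold (0.28 to 1.27) and Ifitm3 at 1.03-fold (0.88 to 1.20). In Il10-/-, 8 of 21 members were at least 2-fold higher, with 11.8% of genes, of which 7 were gamma-like and 1 type I-like. Ubd was at least 70.9-fold higher, taking 3 counts for its 0 in the uninjured library, Igtp 4.41-fold (2.35 to 9.16), Gbp2 3.90-fold (2.58 to 6.13) and Oasl2 at least 3.68-fold. Irf1 was at 0.57-fold (0.40 to 0.81) and Isg15 at 0.89-fold (0.63 to 1.26). The uninjured library was below all DSS libraries for 1 of 36 members (Oasl2), with 18.3% of genes. Il10-/- was above all DSS libraries for 21 of 36 members, with 8.79% of genes, including 10 of 13 gamma-like and 7 of 12 type I-like members.

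In the monocyte or macrophage class both sums were lowest in the uninjured library and the Il10-/- library lay inside the DSS range. The type I-like sum was 106 CPM uninjured, 466 to 1222 CPM after DSS (median 755) and 552 CPM in Il10-/-, and the gamma-like sum 313, 537 to 1786 (median 1070) and 1182 CPM. The uninjured values rest on 67 cells, against 168 to 1464 after DSS. Neutrophil markers summed to 30.2 CPM uninjured, 391 to 10737 CPM after DSS and 2435 CPM in Il10-/- in this class, and their part in the result was not tested. Isg15 was at 41.5 CPM uninjured, 158 to 659 CPM after DSS (median 359.8) and 311 CPM in Il10-/-. Irf7 was at 11.3 CPM, 52.2 to 94.7 CPM (median 66.3) and 48.3 CPM. Gbp2 was at 22.7 CPM, 175 to 708 CPM (median 408) and 417 CPM. Irf1 was at 86.8 CPM, 85.4 to 193 CPM (median 157) and 145 CPM, so day 18 was just below the uninjured library for Irf1. Gbp2, Isg15 and Irf7 had no overlap between the uninjured and DSS libraries.

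On day 6, 23 of 34 members were at least 2-fold higher in this class, with 17.8% of genes, and 0 at least 2-fold lower. The highest were Ifitm1 at 568-fold (102 to 22438, 6091 counts against 1), Gbp2 at 18.0-fold (8.25 to 49.2), Irgm1 at 11.7-fold (3.99 to 57.2, 378 against 3) and Isg15 at 10.8-fold (6.02 to 21.7). Bst2 was at 0.93-fold (0.70 to 1.27) and Gbp3 at 1.07-fold (0.68 to 1.78), the lowest among members with an uninjured count above 0. The medians were 4.71 for type I-like and 3.02 for gamma-like members, with 1.07 for all genes. In Il10-/-, 19 of 34 members were at least 2-fold higher, with 10.2% of genes. Ifitm1 was 321-fold higher (57.6 to 12689, 5478 against 1), Gbp2 18.4-fold (8.45 to 50.3), Isg15 7.49-fold (4.17 to 15) and Irgm1 6.23-fold (2.11 to 30.4). In each of the pair of comparisons 6 members had 0 uninjured counts and entered at their lower bound. The uninjured library was below all DSS libraries for 29 of 36 members, but 32.5% of all genes had that order here. Il10-/- was above all DSS libraries for 1 of 36 members (Iigp1), with 5.85% of genes.

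**Figure D4:**
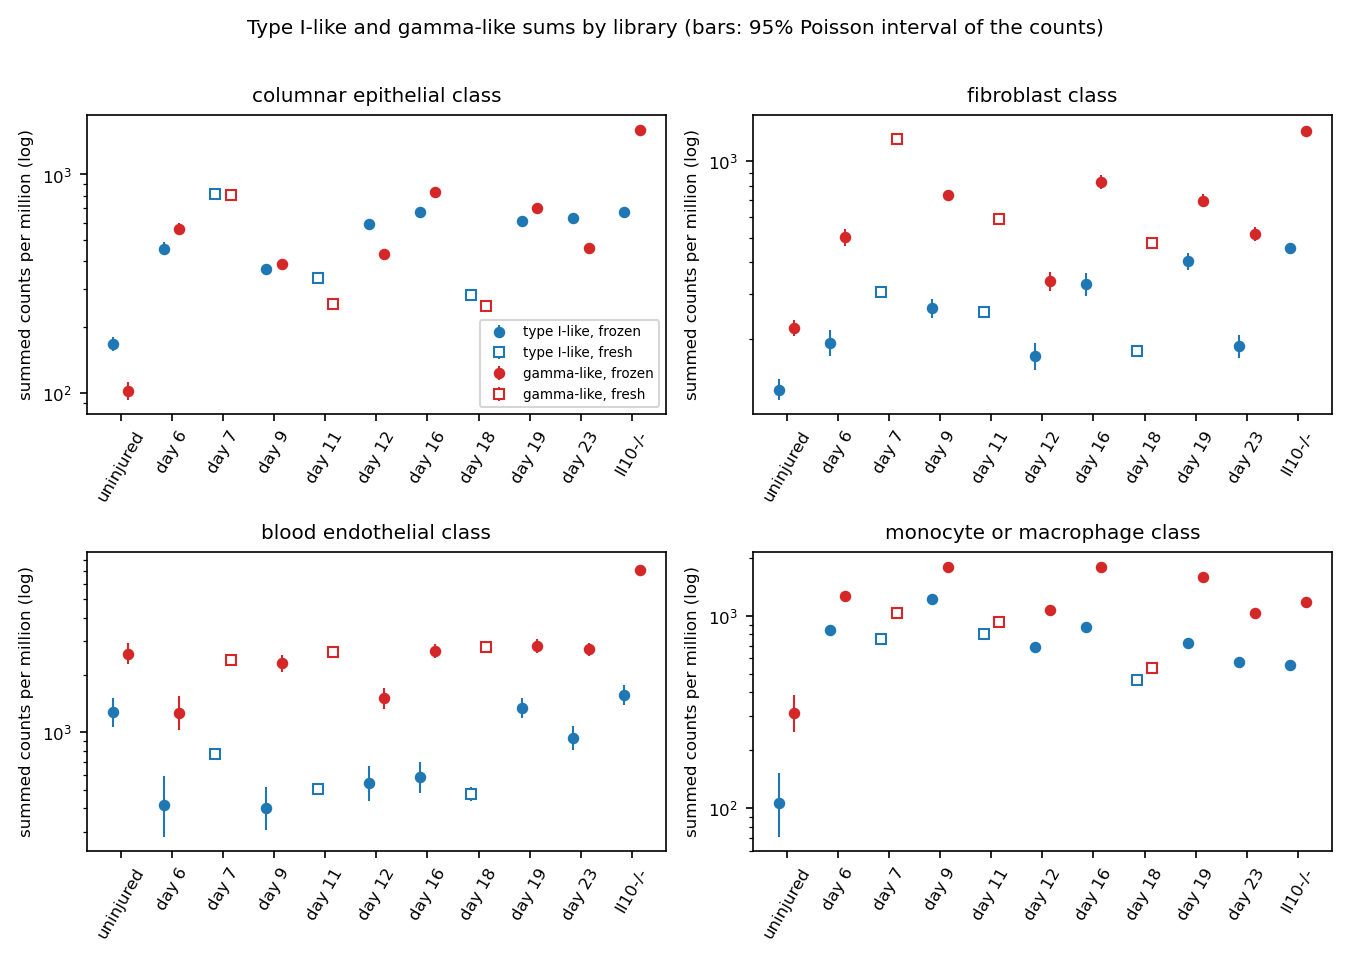
Summed CPM (log axis) of type I-like (blue) and gamma-like (red) members by library in 4 classes, with 95% Poisson intervals of the counts; open squares are fresh libraries. Columnar cells, fibroblasts and macrophages are lowest in the uninjured library, endothelium is not, and the gamma-like endothelial sum reaches 7107 CPM in Il10-/-.

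Neutrophils, which had 0 cells in the uninjured library, had a type I-like sum of 773 to 2733 CPM after DSS (median 1811) and 1662 CPM in Il10-/-, and a gamma-like sum of 666 to 2510 CPM (median 1071) and 1899 CPM. Day 7 was lowest for both. Isg15 was at 262 to 1482 CPM after DSS (median 857.5) and 880.1 CPM in Il10-/-. Oasl2 was at 129 to 415.5 CPM (median 192) and 201 CPM. Gbp2 was at 155 to 890.2 CPM (median 356) and 723 CPM, and Irf1 at 254 to 557 CPM (median 351) and 513 CPM. In all 4 genes Il10-/- fell within the DSS range, and day 16 was the highest DSS library for Isg15, Gbp2 and Irf1. Il10-/- lay above all 9 DSS libraries for 3 of 35 members (Ifitm3, Igtp and Ubd), with 3.15% of genes, and above the 6 frozen ones for 7, with 8.35% of genes.

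T cells varied less than the classes above in their gamma-like sum after DSS, but not in their type I-like sum. Their type I-like sum was 124 CPM uninjured, 148 to 409 CPM after DSS and 259 CPM in Il10-/-, and their gamma-like sum 498, 513 to 850 and 592 CPM. The uninjured sums rest on 38 cells, with 7 type I-like and 28 gamma-like counts. Neutrophil markers in T cells ran from 142 CPM uninjured to 16133 CPM on day 11, the library that was also highest for both sums. The share of the type I-like sum that they would bring had a median of 6.14% and reached 36.2%. From monocyte or macrophage markers the medians were 6.13% (type I-like, up to 14.2%) and 5.57% (gamma-like, up to 8.69%). Isg15 was at 35.6 CPM uninjured, 61.1 to 172 CPM after DSS and 165 CPM in Il10-/-. Irf7 was at 35.6 CPM, 16.9 to 42.4 CPM and 23.0 CPM. Irf1 was at 53.3 CPM, 69.9 to 151.5 CPM and 99.1 CPM, and Igtp at 53.3 CPM, 60.4 to 125 CPM and 109 CPM. For 14 of 32 members the uninjured library lay below all DSS libraries, where 30.0% of genes did, and Il10-/- lay above all DSS libraries for 1 of 32 (Ubd), with 3.94% of genes.

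In B cells the type I-like sum was 27.0 CPM uninjured, 58.1 to 199 CPM after DSS and 122 CPM in Il10-/-, and the gamma-like sum 80.9, 143 to 597 and 365 CPM. The uninjured values rest on 53 cells with 2 type I-like and 6 gamma-like counts, and without the highest cell the uninjured type I-like sum was 13.8 CPM. Day 9 was the highest library for the gamma-like sum. Irf7 was at 27.0 CPM uninjured, 9.7 to 45.8 CPM after DSS and 21.8 CPM in Il10-/-. Irf1 was at 27.0 CPM, 43.5 to 157 CPM and 98.8 CPM, and Irgm1 at 0 CPM, 12.8 to 99.5 CPM and 35.6 CPM. For 9 of 23 members the uninjured library lay below all DSS libraries, with 23.9% of genes, and Il10-/- lay above all of them for 1 of 23 (Ubd), with 3.31% of genes.

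The course over days was tested across all genes in each class with edgeR's quasi-likelihood test on the 9 DSS libraries, with the batch as a term and Benjamini-Hochberg adjustment. A slope is a change in log2 level per 10 days, and a gene was called at an adjusted p under 0.05. With 1 library per day, and pooled mice, the p-values measure the spread of libraries around a straight line.

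Only monocytes or macrophages and B cells had members that passed. In the monocyte or macrophage class 3 of 36 members fell with day and 0 rose, where 7.13% of all genes fell. The count of members called was therefore near the share of all genes. At an unadjusted edgeR p under 0.05, 6 type I-like, 2 gamma-like and 5 other members had slopes below 0. Another member in neither group had a slope above 0 at that threshold. Of all 10058 genes tested, 1532 met it below 0 and 1385 above 0. Whether the members differ from other genes as a set was not tested. Ifitm3 was at 3520, 2810, 3464, 3424, 2378, 2528, 2019, 2671 and 2009 CPM on days 6, 7 and 9, then 11, 12 and 16, then 18, 19 and 23, against 955 CPM uninjured. It fell by 0.49 per 10 days (SE 0.12, edgeR adjusted p = 0.020). Gbp6 was at 8.1, 10.4, 6.5, 9.3, 5.3, 5.4, 7.4, 4.1 and 1.5 CPM and fell by 0.81 (SE 0.22, edgeR adjusted p = 0.030). Ifih1, the RNA sensor MDA5, was at 35.2, 39.2, 33.1, 42.0, 27.5, 33.0, 29.0, 25.1 and 19.9 CPM and fell by 0.43 (SE 0.12, edgeR adjusted p = 0.034). Day 23 was lowest for all 3. The 12 type I-like members tested all had slopes below 0, with a median of -0.53, against a median of 0.01 for all genes, but none of them passed. The 3 calls were lost without the batch term, without day 9 and without day 23.

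In B cells 4 type I-like, 8 gamma-like and 10 other members were tested. Of these, 3 members fell and 0 rose, where 0.525% of all genes fell. Ifitm3 was at 183, 48.0, 159.8, 65.8, 111, 64.6, 18.2, 80.3 and 38.5 CPM on those days, against 40.5 CPM uninjured, and fell by 1.31 (SE 0.19, edgeR adjusted p = 3.2e-05). Isg15 was at 76.4, 25.6, 81.2, 25.9, 19.4, 46.0, 12.8, 22.0 and 20.2 CPM and fell by 1.17 (SE 0.26, edgeR adjusted p = 0.0069). Gbp2 was at 61.1, 11.2, 57.6, 15.2, 14.5, 36.0, 6.7, 25.3 and 11.1 CPM and fell by 1.14 (SE 0.30, edgeR adjusted p = 0.038). The day 6 values rest on 61 cells with 12 Ifitm3, 5 Isg15 and 4 Gbp2 counts, and the day 12 Gbp2 value on 6 counts. The fresh libraries of days 7, 11 and 18 were below the frozen ones of nearby days for Ifitm3. Without the batch term 0 members and 0 of all genes were called, and without day 9 or without day 23 the count was 1. Neutrophil markers in B cells ranged from 278 CPM (day 23) to 5332 CPM (day 12). Monocyte or macrophage markers ranged from 23.7 CPM (day 18) to 336 CPM (day 6), which were also the lowest and highest DSS libraries for Ifitm3. The part of either source in these slopes was not tested. The share of the B cell type I-like sum that neutrophil markers would bring had a median of 10.1% and reached 34.35%. From monocyte or macrophage markers it had a median of 6.05% and reached 36.9%. For the gamma-like sum that source gave a median of 4.87% and at most 23.6%. Shares for the 3 called genes are not given here.

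**Figure D5:**
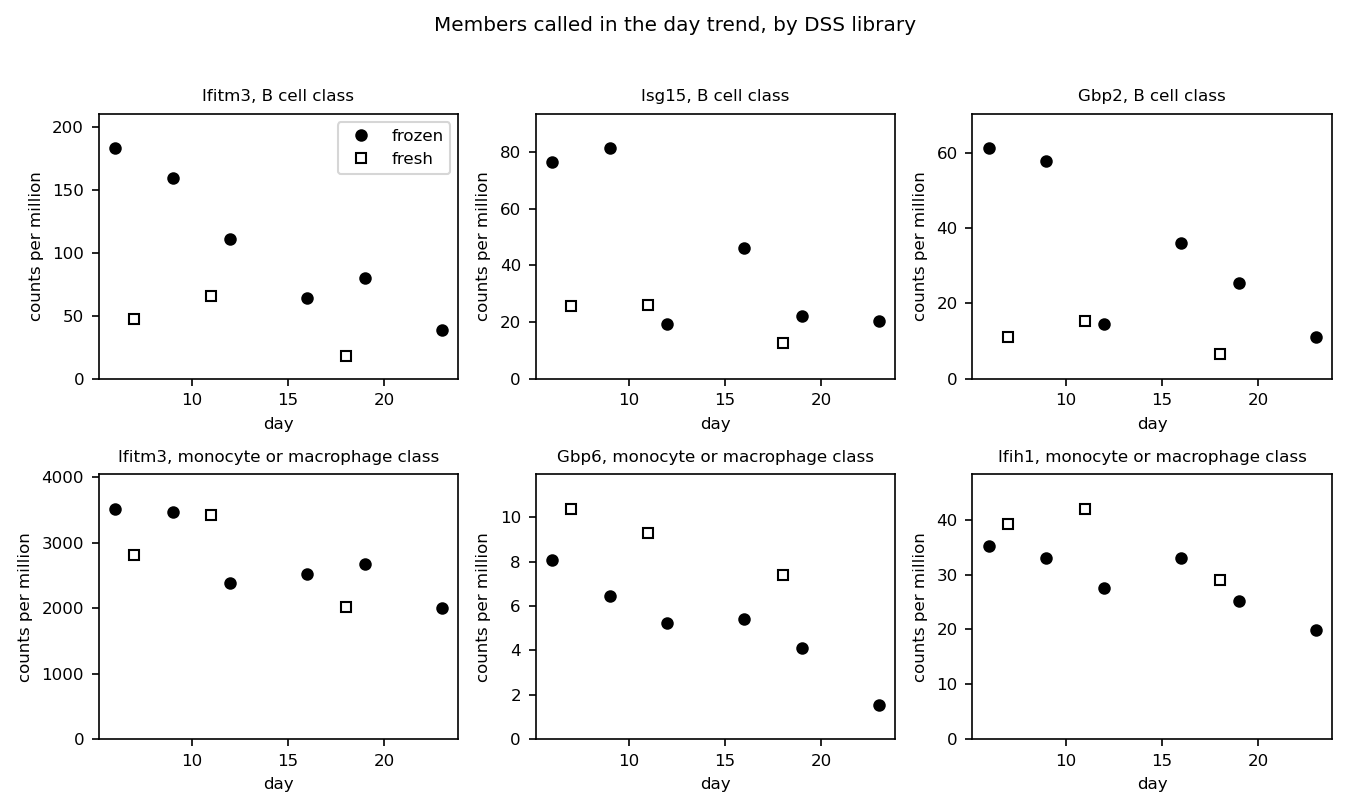
CPM against day for the 6 member and class pairs that passed the day test, with frozen libraries as filled circles and fresh ones as open squares. Macrophage Ifitm3 runs from 3520 CPM on day 6 to 2009 CPM on day 23, and B cell Ifitm3 from 183 to 38.5 CPM.

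No member passed in the other 5 classes. In columnar cells 0 of 36 members were called, while 0.229% of all genes were. At an unadjusted p under 0.05, 1 type I-like, 1 gamma-like and 2 other members had slopes below 0, and DESeq2 called 1 member. Of all 10914 genes tested there, 881 met the unadjusted threshold with a slope below 0. In fibroblasts 0 of 35 were called (4.65% of genes), with 0, 3 and 1 at the unadjusted threshold, all below 0, and 0 by DESeq2. Among all 10290 genes, 1053 met that threshold below 0. In endothelium 0 of 26 were called (1.3% of genes). There the unadjusted threshold was met by 2 gamma-like and 2 other members with slopes above 0 and by 1 other member below 0, and DESeq2 called 2. It was met by 240 of all 3537 genes above 0 and by 242 below 0. In neutrophils 0 of 35 were called (2.61% of genes), with 2 members in neither group at the unadjusted threshold and 0 by DESeq2. Both had slopes below 0, where 913 of all 8394 genes met that threshold. In T cells 0 of 30 were called (0.217% of genes), with 3 type I-like, 4 gamma-like and 1 other at the unadjusted threshold, all below 0, and 0 by DESeq2. Among all 7848 genes, 324 met that threshold below 0. Shares of all genes called by DESeq2 are not given here. The median slope of the type I-like members was -0.41 in columnar cells, -0.86 in T cells, 0.16 in endothelium and 0.26 in neutrophils.

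Other genes of the pathway passed the same day test in few cases. In monocytes or macrophages 5.28% of all genes rose and 7.13% fell. Of the 9 receptor and transducer genes tested there, 2 fell and 0 rose: the kinases Jak2 (-0.62, SE 0.11, edgeR adjusted p = 0.0037) and Jak1 (-0.43, SE 0.08, edgeR adjusted p = 0.0062). Of 26 other targets in that class 2 rose (Ciita and Psmb8) and 3 fell (Ifi204, Eif2ak2 and Sp100). Ciita, the master regulator of MHC class II genes, rose by 0.83 (SE 0.14, edgeR adjusted p = 0.0028). Of 12 feedback and regulator genes 1 rose, the factor Irf8 (0.91, SE 0.18, edgeR adjusted p = 0.013), and 2 fell (Il10ra and Ptpn2). In T cells Irf8 fell by 1.28 (SE 0.21, edgeR adjusted p = 0.0095), in fibroblasts the phosphatase Ptpn2 fell by 0.90 (SE 0.15, edgeR adjusted p = 0.0040) and in B cells the chemokine Cxcl10 fell by 1.21 (SE 0.26, edgeR adjusted p = 0.0041). In columnar, endothelial and neutrophil classes 0 genes of these lists were called.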

How the data were processed

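The files hold 3′ single-cell counts (10x Genomics Chromium). The deposited unit is the raw UMI count per gene and cell, made by the authors with Cell Ranger 3.0.0 on the mm10 build, per the submitters' processing notes. How cells were filtered and doublets treated before deposit is not given in the sources used here. No doublet caller was run. Cells went to libraries, batches and types through the authors' cell table, per the file headers. Of 68224 cells, 12621 in 3 libraries with no sample label here were not used. Rows with no gene identity (597 of 30406, 0.517% of counts) were left out. Counts were summed per library and class (joined types) where at least 20 cells were present, and divided by the class total to give CPM.

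Day trends were fitted with edgeR 4.0.16 (TMM scaling, filterByExpr, glmQLFit and glmQLFTest) in R 4.3.3 on classes present in at least 7 DSS libraries, with adjustment over all genes, and were tested on simulated data. DESeq2 1.42.0 was an alternative. Other alternatives were no batch term, the 6 frozen DSS libraries alone, no filter, log2 of day, the largest authors' type, each library left out, TMM scaling or 50 counts for ratios, and, chosen after seeing the data, totals without mitochondrial genes and the 6 frozen libraries for comparisons of ranges. Ratios between single libraries carry exact 95% intervals for counting error, with 3 counts standing for 0. Pools of mice were not split, so p-values measure the spread between libraries, which may be technical.

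The members named with values are those called in the day trend, the 2 type I-like and 2 gamma-like members with most counts per class, the 4 highest and 2 lowest ratios, and those with the highest level of a type. Members in the promoter, within-epithelium and Il10-/- descriptions that fall outside this rule were chosen after their values were seen. The members, lists and tests were chosen with earlier results of these data known.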

Additional observations from a re-analysis of the deposited data

Results flagged for a closer look

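Blood endothelial cells went against columnar epithelial cells, fibroblasts and the monocyte or macrophage class on day 6. Their summed type I-like members were at 0.324 times the uninjured level (95% counting interval 0.212 to 0.483), where the same sum was 2.72 times higher in columnar epithelial cells, 1.53 times in fibroblasts and 7.95 times in the monocyte or macrophage class. Their summed gamma-like members were at 0.489 times the uninjured level (0.382 to 0.621), against 5.53, 2.26 and 4.05 times in those 3 classes. The sums were picked out because the direction of the difference between day 6 and the uninjured library was opposite in endothelium. The difference between classes was not tested, since each group is 1 library, and the endothelial values rest on 27 cells on day 6 and 43 uninjured cells. Of these, 9 on day 6 and 4 uninjured were of the authors' Selp/Sele endothelial type. Its type I-like sum lay below that of the type Endothelium on days 7, 11 and 18 (234, 432 and 408 against 1015, 540 and 505 CPM). Its gamma-like sum lay below on day 7 and above on days 11 and 18. On day 6 the type Endothelium had 18 cells, under the minimum of 20. The part of this make-up in the difference was not tested.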

How the results depend on the processing

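No paired analysis was possible because each group is 1 library. Of the sums, counts and slopes recomputed, 1 reversed: the log2 ratio of the uninjured type I-like sum to the DSS median in plasma cells was 0.93, and -1.22 without each library's highest cell, an alternative chosen after seeing the data. The counts of called or differing members were within 1.5 times the reported one in 70 of 90 alternatives that keep every library, and in 43 of 63 that leave one out. The exceptions follow, and their cause was not tested. Without the batch term 0 members were called in macrophages and 0 in B cells. With DESeq2 the counts were 1 in columnar cells, 2 in endothelium and 9 in macrophages (3 of them shared with the reported calls). With no filter they were 3 in endothelium and 5 in T cells. With the 6 frozen libraries they were 4 in endothelium and 6 in B cells, with log2 of day 1 in macrophages, and in the largest authors' type 1 each in columnar cells, macrophages and T cells. Leaving out 1 library gave 0 to 6 calls in macrophages (0 without day 9 or day 23, 1 without day 18, 6 without day 11), 1 to 7 in B cells (1 without day 9 or day 23, 7 without day 7), 0 to 3 in T cells (3 without day 7) and 0 to 1 in columnar cells, fibroblasts, endothelium and neutrophils. A minimum of 50 counts left 5 fibroblast members at least 2-fold from uninjured on day 6, and TMM scaling gave 13 endothelial members in Il10-/-, where it moved the median of all genes to a log2 ratio of 0.31. Il10-/- exceeded all DSS libraries for 14 columnar and 2 T cell members without mitochondrial counts, and for 20 columnar, 7 neutrophil and 2 T cell members against the frozen libraries. Slopes of the 6 called member and class pairs kept their sign, with the B cell Gbp2 slope from -1.29 to -0.84 when a library was left out. Depth limits the uninjured B cell (2 and 6 counts), T cell (7 and 28) and macrophage sums (28 and 83 type I-like and gamma-like counts) and the endothelial values, and members under the count minimums were not compared.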
